A study of Mus musculus with 9 samples.

Results

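The 10 imprinted genes described here are Peg3, Peg10, Mest, Snrpn, Igf2, Dlk1 and Plagl1, which are expressed from the paternal allele in most mouse tissues, and H19, Meg3 and Grb10, which are mostly expressed from the maternal allele. They are 10 of the 32093 protein-coding and long noncoding genes of the annotation (GENCODE release 21 for mouse, on the mm10 assembly). The set was selected on its names after Peg3 had been seen to hold a promoter peak, close to its start, in 2 lists that was missing from the third. The peaks at Peg3 are therefore a description, while the other 9 genes were asked whether they showed the same. The mark followed was H3K27ac, the acetyl group on lysine 27 of histone H3 that is found at active promoters and enhancers. It was mapped by MicroChIP-seq, which is chromatin immunoprecipitation and sequencing adapted to few cells, in the forelimb buds of E10.5 mouse embryos with 33 to 34 somites.

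The 3 genotypes were wild type (WT), Shh-/- and Shh-/-;Gli3-/-. Shh-/- embryos lack the Sonic hedgehog ligand, and Shh-/-;Gli3-/- embryos also lack GLI3, a transcription factor whose processed form represses Hedgehog target genes. The study's methods name the null alleles Shh tm1amc and Gli3 Xt-J, which are carried in every cell of the embryo and were kept on a Swiss Webster background, whereas the labels give a mixed strain background. Each immunoprecipitation used 1 pair of limb buds, and each genotype had 2 H3K27ac libraries and 1 input library, 9 libraries in all. Groups were read from the sample titles, because the genotype entry reads wild type for every sample. The measurements are 3 peak lists, 1 for each genotype, which hold no value per library, so the variation among embryos is unknown here and no difference was tested.

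An imprinted gene is expressed mainly from the copy inherited from 1 parent. The choice is set by DNA methylation laid down in the egg or the sperm at imprinting control regions, which often lie over a promoter, as at Peg3, Peg10, Mest, Snrpn, Plagl1 and Grb10, or between genes, as upstream of H19 and between Dlk1 and Meg3. The unmethylated copy can carry active histone marks such as H3K27ac, while the zinc finger protein ZFP57 binds the methylated copy and keeps it methylated. Many imprinted genes act in growth of the embryo and placenta. The peak lists hold no allele information, so a peak at an imprinted gene was not assigned to either parental copy.

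The stretches of reference sequence printed here show what lay under the peaks the results turn on. They come from the GRCm38 genome, are written 5′ to 3′ along the gene, and have the hexamer TGCCGC, the core letters of the ZFP57 motif, in capitals on either strand (GCGGCA is its other strand). The first is 300 bases of the WT peak at Peg3 that no Shh-/-;Gli3-/- peak overlapped, chr7:6729975-6730274 on the minus strand, centred on the position of its largest statistic. The second is the 161 bases between the starts of Peg3 and of its neighbour Usp29, chr7:6730422-6730582, minus strand. Then come the first 300 bases, by position on the chromosome, of the Shh-/-;Gli3-/- promoter peaks of Snrpn (chr7:60004650-60004949, minus strand) and Meg3 (chr12:109541250-109541549, plus strand). The last is the 206 bases before the first annotated Plagl1 start within its RefSeq promoter, chr10:13090582-13090787, plus strand, where no list held a peak.
Peg3 WT peak: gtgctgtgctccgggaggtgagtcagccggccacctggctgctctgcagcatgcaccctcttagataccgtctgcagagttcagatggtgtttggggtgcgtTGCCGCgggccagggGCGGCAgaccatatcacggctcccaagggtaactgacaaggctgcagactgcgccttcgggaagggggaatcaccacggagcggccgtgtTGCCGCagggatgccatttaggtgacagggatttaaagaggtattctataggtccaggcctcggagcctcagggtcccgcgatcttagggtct
Peg3 between starts: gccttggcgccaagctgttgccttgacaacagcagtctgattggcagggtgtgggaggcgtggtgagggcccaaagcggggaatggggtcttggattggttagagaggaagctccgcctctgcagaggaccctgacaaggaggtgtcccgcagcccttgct
Snrpn double mutant peak: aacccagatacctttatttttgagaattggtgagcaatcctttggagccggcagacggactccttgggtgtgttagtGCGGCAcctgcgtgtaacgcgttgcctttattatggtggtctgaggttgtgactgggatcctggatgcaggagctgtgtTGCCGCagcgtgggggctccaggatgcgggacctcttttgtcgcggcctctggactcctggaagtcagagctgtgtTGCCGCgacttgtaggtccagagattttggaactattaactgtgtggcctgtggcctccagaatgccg
Meg3 double mutant peak: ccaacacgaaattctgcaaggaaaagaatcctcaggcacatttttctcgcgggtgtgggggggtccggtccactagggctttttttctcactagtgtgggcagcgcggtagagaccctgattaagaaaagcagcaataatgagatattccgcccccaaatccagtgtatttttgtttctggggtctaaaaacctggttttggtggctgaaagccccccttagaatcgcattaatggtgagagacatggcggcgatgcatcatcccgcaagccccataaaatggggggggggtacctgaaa
Plagl1 promoter: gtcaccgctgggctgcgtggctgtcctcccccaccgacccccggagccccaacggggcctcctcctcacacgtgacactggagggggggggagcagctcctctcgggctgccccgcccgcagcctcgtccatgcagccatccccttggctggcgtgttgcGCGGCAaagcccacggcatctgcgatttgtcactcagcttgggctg

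The Peg3 and the Snrpn stretches each held 3 copies of the hexamer, the Plagl1 stretch held 1, and the Meg3 stretch and the bases between the Peg3 and Usp29 starts held none. At least 1 copy was present in 14.1% of 300-base windows placed at the position of the largest statistic in WT peaks, in 10.9% of those in Shh-/-;Gli3-/- peaks and in 11.6% of the 32851 promoters (250 bases before to 50 after a start) tabulated by RefSeq for this assembly. The share of windows with 3 copies was not counted. Over its whole 700 bp the Peg3 WT peak held 4 copies, 1 match to GGNGGCAG, a core of the CTCF motif that can overlap the hexamer, and no match to TGGGTGGTC, a core of the GLI motif. WT promoter peaks of members that peaks of both mutant lists overlapped held between 0 (Peg10, 600 bp) and 7 copies (Mest, 950 bp). RefSeq promoters were matched for 8 of the 10 genes (18 promoters). None of these 18 held the GLI letters, which 0.253% of all promoters held, and none held AANATGGCG, a core of the YY1 motif, which 2.38% held. Under promoter peaks of members, the GLI letters occurred once in a Mest peak in Shh-/- (30736700 to 30737049) and in Shh-/-;Gli3-/- (30736550 to 30737099), and the YY1 letters once in the Peg3 intron peak in WT (6729150 to 6729549) and in Shh-/-;Gli3-/- (6728950 to 6729499). These matches describe letters in a window and are not sites of binding.

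The lists differed in size and stringency, which touches every comparison between them. In the order WT, Shh-/- and Shh-/-;Gli3-/- there were 25096, 32085 and 34641 peaks, with 10.4, 12.9 and 17.1 Mb under them, and the false discovery rate (FDR, as deposited) reached 0.350, 0.186 and 0.109. Promoters of all 6 limb mesenchyme markers examined (Prrx1, Prrx2, Tbx5, Twist1, Msx1 and Meis2) held peaks in each list, and those of the hindlimb, ectoderm and neural crest markers held none in any. Of 4 markers each, blood had 1 (Klf1, 150 bp) in Shh-/- alone, endothelium 1 (Pecam1, 350 bp) and muscle precursors 1 (Lbx1, 250 bp) in Shh-/-;Gli3-/- alone. The part of cell composition in the values below was not tested, and in whole limb buds fewer acetylated cells and less acetylation per cell cannot be told apart.

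Most of the imprinted genes were acetylated at a promoter in all 3 genotypes. A promoter peak, meaning a peak overlapping the window from 2 kb before to 1 kb after any transcript start, was listed for 8 of the 10 genes in WT, 8 in Shh-/- and 9 in Shh-/-;Gli3-/- limb buds. Over all genes the shares were 35.3%, 38.7% and 37.3%. Peg3, Peg10, Mest, Snrpn, Igf2, H19, Dlk1 and Grb10 had a promoter peak in every list. Meg3 had one in the Shh-/-;Gli3-/- list alone, and Plagl1 had none. With peaks of an FDR below 0.05 alone, the counts were 6, 6 and 9 members, and Snrpn (400 bp) and Dlk1 (650 bp) joined Meg3 in having a promoter peak in Shh-/-;Gli3-/- alone. Under that filter the shares over all genes were 31% in WT, 36% in Shh-/- and 36% in Shh-/-;Gli3-/-. Of genes without such a peak in WT or Shh-/-, 667 of 20095 (3.32%) had one in Shh-/-;Gli3-/-, and 3 of 4 members did. The filter was not equally strict in each list, as it kept 60.8% of WT, 72.4% of Shh-/- and 83.4% of Shh-/-;Gli3-/- peaks. The promoter peaks it removed had an FDR of 0.298 (WT) and 0.0588 (Shh-/-) at Snrpn, and 0.254 and 0.101 at Dlk1. A gain of acetylation at Snrpn and Dlk1 is therefore not read from these counts. Plagl1, which encodes a zinc finger transcription factor, had no peak at all within 10 kb of its 71.2 kb span in any list.

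No member of the set therefore lost its promoter peak calls altogether in the double mutant. Among genes with a WT and a Shh-/- promoter peak, 258 of 10818 (2.38%) had none in the Shh-/-;Gli3-/- list, and these imprinted genes contributed 0 of 8. In the opposite direction, Meg3 was 1 of 2 members without a WT or Shh-/- promoter peak to have one in Shh-/-;Gli3-/- limb buds, against 441 of 19159 genes (2.3%). The count of 0 also held for Peg3, at which single peaks have to be looked at to see the difference that drew attention to it.

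**Figure D1:**
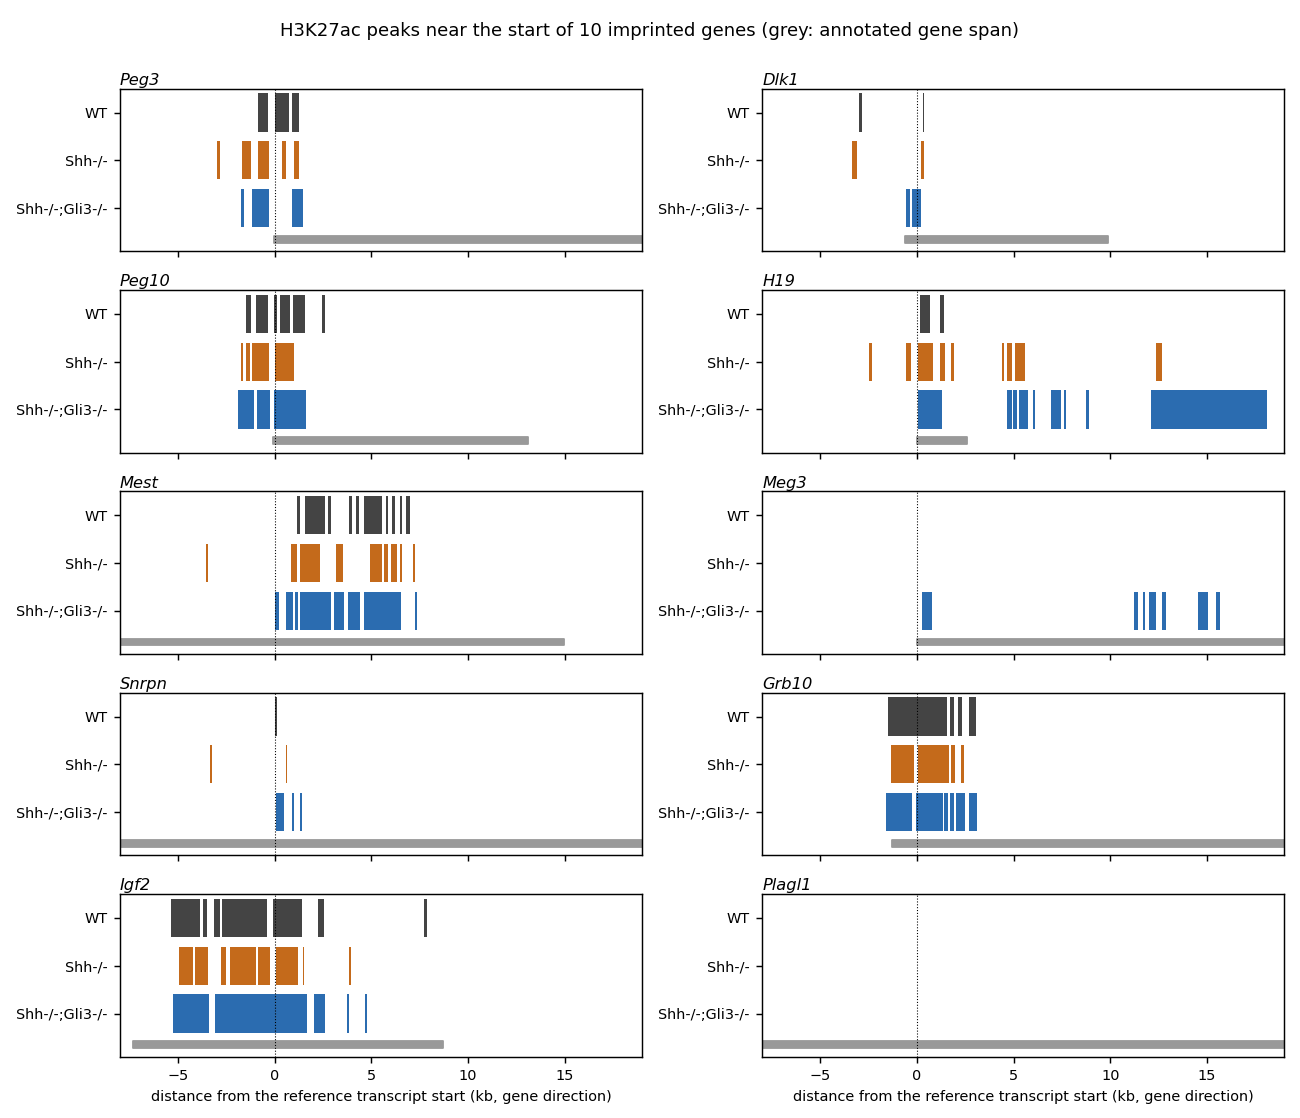
Peaks of the 3 lists (bars, 1 row for each list) around 1 reference transcript start of each gene (dotted line at 0), in kb along the direction of the gene, with the annotated gene span in grey. Peg3 has a stretch after its start without a Shh-/-;Gli3-/- peak, Meg3 has peaks in the Shh-/-;Gli3-/- list alone, and the panel of Plagl1 is empty.

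Peg3 encodes a paternally expressed zinc finger protein known for roles in growth and maternal behaviour, and its start lies 162 bp from that of Usp29 on the other strand, so that promoter peaks here cannot be given to either gene alone. The WT list held 3 Peg3 promoter peaks. One of 400 bp (chromosome 7, 6729150 to 6729549) lay in the first intron, one of 700 bp (6729700 to 6730399) covered the end of the first exon and the intron beside it, and one of 550 bp (6730750 to 6731299) lay upstream. Their deposited log2 folds over input were 3.19, 3.78 and 3.15, and the 700 bp peak ranked at percentile 84.9 of its list by the authors' score.

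In Shh-/- limb buds peaks were listed at the same 3 places, 2 of them narrower than in WT. The intron peak measured 250 bp (6729150 to 6729399) and ended just short of the promoter window, and the peak in the place of the 700 bp WT peak measured 200 bp (6729850 to 6730049) with an FDR of 0.130 and percentile 12.0 of its list. The upstream peak measured 600 bp (6730700 to 6731299), and a further peak of 450 bp lay at 6731650 to 6732099. The central peak was thus listed in Shh-/-, but among the lower ranks of that list.

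The Shh-/-;Gli3-/- list held a 550 bp intron peak (6728950 to 6729499, log2 fold 3.30), a 900 bp upstream peak (6730700 to 6731599, 2.97) and a 150 bp peak (6732000 to 6732149). Between the first and the second of these was a stretch of 1200 bp (6729500 to 6730699) with no peak, which contains both starts. In that stretch peaks covered 750 bp in WT, 200 bp in Shh-/- and 0 bp in Shh-/-;Gli3-/-. The 700 bp WT peak lay 200 bp from the nearest double mutant peak on one side and 300 bp on the other. Over the whole gene with 10 kb on both sides, Peg3 was covered for 1750 bp in WT, 1750 bp in Shh-/- and 1700 bp in Shh-/-;Gli3-/-. This near equality rests on peaks outside the annotated gene. Over the gene span alone, cover was 1100, 550 and 550 bp, and with peaks of a log2 fold of at least 3 it was 1650, 0 and 550 bp within 10 kb.

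**Figure D2:**
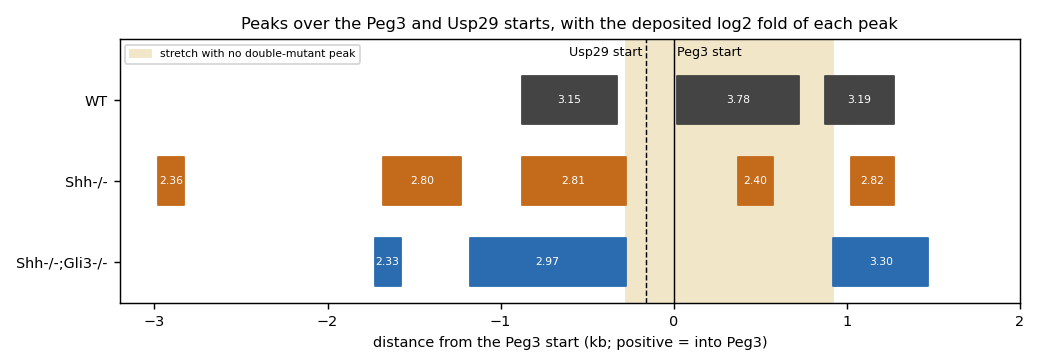
Peaks over the Peg3 and Usp29 starts in the 3 lists, in kb from the Peg3 start with positive values into Peg3, and the deposited log2 fold of each peak over its own input printed in the bar. The shaded stretch of 1200 bp around both starts holds a 700 bp peak in WT, a 200 bp peak in Shh-/- and none in Shh-/-;Gli3-/-, with double mutant peaks on both sides of it.

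The other 9 genes were then read peak by peak. The members together had 22 different WT promoter peaks. Of these, 14 were overlapped by a peak in both mutant lists, 6 in Shh-/-;Gli3-/- alone, 2 in Shh-/- alone and 0 in neither. Over the 14193 WT promoter peaks of all genes the shares were 78.4%, 7.53%, 5.21% and 8.83%. Of the 16 peaks of members found again in Shh-/-, 2 were not overlapped in Shh-/-;Gli3-/-, against 739 of 11871 (6.23%) for all genes. One is the 700 bp peak of Peg3, by which the set was chosen, and the other is a 100 bp peak of Dlk1.

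The Dlk1 peak (chromosome 12, 109453750 to 109453849) was weak, with an FDR of 0.254 and percentile 12.0 of the WT list. Dlk1 encodes a transmembrane protein of the Notch ligand family that restrains differentiation of several mesenchymal cell types. Its Shh-/- promoter peak measured 150 bp (109453650 to 109453799). The Shh-/-;Gli3-/- list placed peaks of 200 bp (109452900 to 109453099) and 450 bp (109453200 to 109453649), the second of which spans the reference start and ends right before the Shh-/- peak. Summed over promoter peaks, Dlk1 had 100 bp in WT, 150 bp in Shh-/- and 650 bp in Shh-/-;Gli3-/-, the last the highest of the lists. Among the 739 peaks of all genes in this class, the median width was 150 bp. At least as wide as the Peg3 peak were 2, with the Peg3 peak itself counted among them. A Shh-/-;Gli3-/- peak lay within 500 bp of 539 (72.9%), as it did for the Peg3 and Dlk1 peaks.

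The 6 WT promoter peaks of members found again in Shh-/-;Gli3-/- and not in Shh-/- were 3 peaks at Mest, 2 at Igf2 and 1 at Snrpn, between 100 and 300 bp wide. The 14 found in both lists measured 200 to 3050 bp. In the other direction, 5 of the 23 Shh-/-;Gli3-/- promoter peaks of members (21.7%) were overlapped in neither other list, compared with 2 of 22 (9.09%) for Shh-/- and 0 of 22 for WT. The shares over all genes were 14.9%, 17.8% and 8.83%.

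Among the paternally expressed genes, Igf2, Mest and Peg10 had the longest cover in each list. Igf2, which encodes an insulin-like growth factor of the fetus, had promoter peaks of 4600 bp in sum in WT, 4050 bp in Shh-/- and 7150 bp in Shh-/-;Gli3-/-. In WT the 2 widest were 2300 bp (chromosome 7, 142659900 to 142662199) and 1500 bp (142658100 to 142659599). The Shh-/- list divided the same ground into peaks of up to 1350 bp. The Shh-/-;Gli3-/- list had 1 peak of 4750 bp (142657800 to 142662549, log2 fold 4.89, percentile 95.1). All 3 lists thus marked the cluster of Igf2 promoters, with the number of peaks within 10 kb at 7, 8 and 5 and the covered length at 6250, 4900 and 7350 bp.

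Mest encodes an endoplasmic reticulum protein of the alpha/beta hydrolase fold and is used as a mesoderm marker. Its promoter peaks summed to 2400 bp in WT, 1250 bp in Shh-/- and 5250 bp in Shh-/-;Gli3-/-. The 2 WT peaks of 1000 bp (chromosome 6, 30735100 to 30736099) and 950 bp (30738100 to 30739049) corresponded to double mutant peaks of 1600 bp (30734800 to 30736399) and 1950 bp (30738100 to 30740049). In Shh-/- limb buds the first was matched by a peak of 1050 bp (30734800 to 30735849) and the second by one of 600 bp (30738450 to 30739049). The 1050 bp Shh-/- peak fell outside the promoter windows and is not in the Shh-/- sum. With a gap of up to 500 bp allowed, the sums were 2850, 2850 and 5400 bp, and the length covered within 10 kb was 3250, 3450 and 5500 bp, so a lower value in Shh-/- than in WT depended on the window. Of the WT peak bases in the promoter windows, 41.4% lay under Shh-/- peaks and 100% under Shh-/-;Gli3-/- peaks.

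Peg10, a gene derived from a retrotransposon and needed in the placenta, shares its promoter with Sgce, whose start lies 99 bp away. Promoter peaks of Peg10 summed to 2200 bp in WT, 2150 bp in Shh-/- and 3200 bp in Shh-/-;Gli3-/-. The 3 WT peaks downstream of the start (200, 500 and 650 bp) were covered by a single Shh-/-;Gli3-/- peak of 1700 bp (chromosome 6, 4747350 to 4749049), while the Shh-/- peak there measured 1000 bp (4747400 to 4748399). Of WT promoter peak bases at Peg10, 93.3% lay under Shh-/- and 96.9% under Shh-/-;Gli3-/- peaks. The bases common to all lists were 1450 bp, of 1607 bp in WT, 2150 bp in Shh-/- and 2557 bp in Shh-/-;Gli3-/-.

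**Figure D3:**
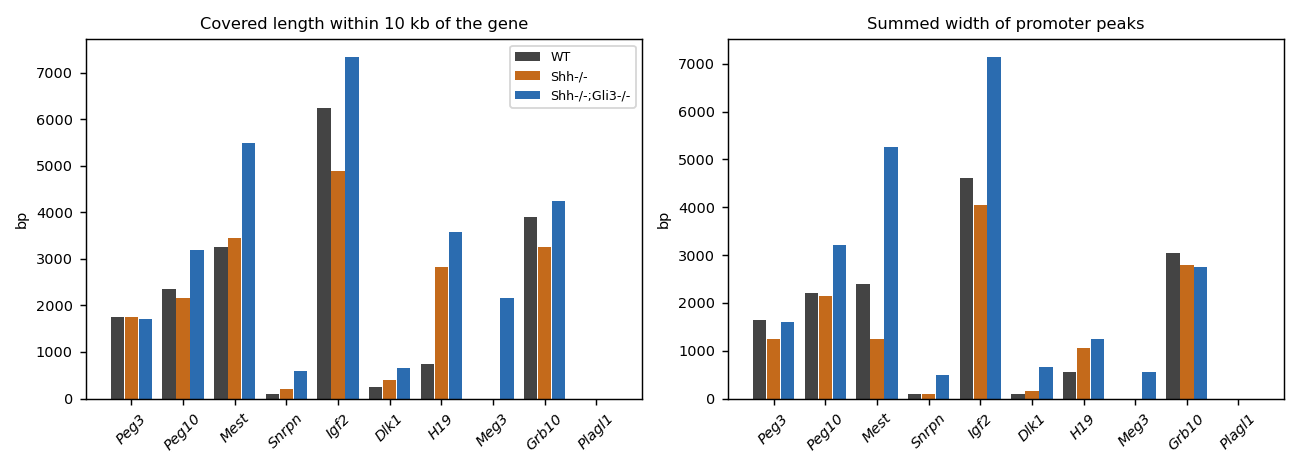
Length in bp covered by peaks within 10 kb of each gene (left) and summed width of its promoter peaks (right) in the WT, Shh-/- and Shh-/-;Gli3-/- lists, 1 bar for each list and no error because each list gives 1 value. Igf2 has the tallest bars in each list, Meg3 has bars in Shh-/-;Gli3-/- alone, Plagl1 has none, and the 3 bars of Peg3 in the left panel are nearly level.

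Snrpn encodes a spliceosomal protein in the region of the Prader-Willi syndrome genes and starts 62 bp from Snurf, with which it shares a transcript. Little of this gene was covered in any list. The WT list had a single 100 bp peak (chromosome 7, 60005000 to 60005099, FDR 0.298). The Shh-/- list had a 100 bp promoter peak elsewhere in the window (60004450 to 60004549, FDR 0.0588), and the Shh-/-;Gli3-/- list had promoter peaks of 400 bp (60004650 to 60005049, FDR 0.00458) and 100 bp (60004100 to 60004199). Each list thus had a peak in the promoter windows, but the Shh-/- one overlapped neither of the others.

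Among the 3 maternally expressed genes, Grb10 had a similar covered length in each list and the noncoding RNA genes H19 and Meg3 did not. Grb10, which encodes an adaptor protein that restrains insulin receptor signalling, had 1 WT promoter peak of 3050 bp (chromosome 11, 12035850 to 12038899). Both mutants had 2 wide peaks in its place, of 1600 bp (12035750 to 12037349) and 1200 bp (12037550 to 12038749) in Shh-/- and of 1400 bp (12036050 to 12037449) and 1350 bp (12037650 to 12038999) in Shh-/-;Gli3-/-. Of WT promoter peak bases, 86% and 92% lay under Shh-/- and Shh-/-;Gli3-/- peaks. A RefSeq promoter of Grb10 (12037371 to 12037670, minus strand, 80% GC and 45 CpG dinucleotides) lay wholly under the WT peak and for 121 and 100 of its 300 bases under mutant peaks. The median RefSeq promoter held 7 CpG dinucleotides.

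Meg3, a noncoding RNA gene of the Dlk1-Dio3 domain on chromosome 12, had no peak within 10 kb in WT or Shh-/- and 7 in Shh-/-;Gli3-/- limb buds, which covered 2150 bp. The promoter peak measured 550 bp (109541250 to 109541799, log2 fold 3.17, FDR 0.000974, percentile 69.5) and lay 243 bp after the start. The other 6 lay in introns 11.2 to 15.7 kb into the gene and were 100 to 500 bp wide. Meg3 was thus the gene of the set with the clearest difference in presence, and its 4 annotated starts were without a peak in the other lists.

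H19, a noncoding RNA gene expressed in fetal tissues and paired with Igf2 through a shared control region, had a promoter peak of 550 bp in WT (chromosome 7, 142577450 to 142577999), 800 bp in Shh-/- (142577300 to 142578099) and 1250 bp in Shh-/-;Gli3-/- (142576850 to 142578099). A second Shh-/- promoter peak of 250 bp (142578450 to 142578699, FDR 0.00373) lay upstream of the start and was overlapped in neither other list. Promoter peaks of H19 thus summed to 550, 1050 and 1250 bp. Within 10 kb, there were 2, 9 and 9 peaks that covered 750, 2821 and 3571 bp. Most of the added cover in both mutants lay beyond the 3′ end of H19. The Shh-/- list also had a 150 bp peak (142580450 to 142580599, FDR 0.000423) that starts 2307 bp upstream of the H19 start, in the part of the locus where the control region lies, and its reference sequence held no match to GGNGGCAG. Neither other list had a peak there. At least 1 match to GGNGGCAG was present in 7.6% of 150-base windows placed at the position of the largest statistic in Shh-/- peaks.

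The widest acetylation beside H19 reached past the 10 kb limit. A Shh-/-;Gli3-/- peak of 6000 bp (142560050 to 142566049, 28th widest of that list, percentile 92.9) had 521 bp inside the limit and its near edge 9480 bp from the H19 3′ end. Peaks covered 2500 bp of this stretch in WT and 3950 bp in Shh-/-. The 6000 bp peak lay nearer to the start of Nctc1 (142558596, minus strand) than to H19, so it is not assigned to H19. Over the 50 kb beyond the 3′ end, which also holds Nctc1 and Mrpl23, cover went from 10.4 kb (WT) over 18.2 kb (Shh-/-) to 24.4 kb (Shh-/-;Gli3-/-). Between H19 and Igf2, over 72.6 kb, it was 0.1, 1.05 and 0.5 kb. The lists thus differed mostly on the side of H19 away from Igf2.

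Over the whole set, the length covered within 10 kb summed to 18.6, 18.9 and 29.0 kb in the WT, Shh-/- and Shh-/-;Gli3-/- lists. Of the 9 members with a peak in WT or Shh-/-;Gli3-/-, 8 were covered further in Shh-/-;Gli3-/- than in WT, and the exception was Peg3. The share among all genes was 76.1%. Of the 8 members with a peak in WT or Shh-/-, 4 were covered further in Shh-/- (Mest, Snrpn, H19 and Dlk1), against 65.1% of all genes. With so few genes these counts are near the background, and nothing particular to the set is read from them.

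The ratio of covered length in Shh-/-;Gli3-/- to WT was 0.971 for Peg3, 1.09 for Grb10, 1.18 for Igf2, 1.36 for Peg10, 1.69 for Mest, 2.6 for Dlk1, 4.76 for H19 and 6 for Snrpn. The median of these 8 was 1.53, and that of all 15720 genes with WT cover was 1.27, with 0.6 and 2.64 at the 10th and 90th percentiles. Among those genes Peg3 stood at percentile 21.7, H19 at 96.7 and Snrpn at 98.1, the last on 100 bp of WT cover. The ratio of Shh-/- to WT had a median of 1.03 for the 8 members and 1.12 for all genes, and ran from 0.784 at Igf2 to 3.76 at H19. Igf2, Peg10 and Grb10, all broadly covered, were under 1 in Shh-/- and above 1 in Shh-/-;Gli3-/-. Among all genes their Shh-/-;Gli3-/- ratios stood at percentiles 41.5, 58.0 and 32.9, so Igf2 and Grb10 were below the median gene. The share of all genes with this order of ratios was not counted.

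**Figure D4:**
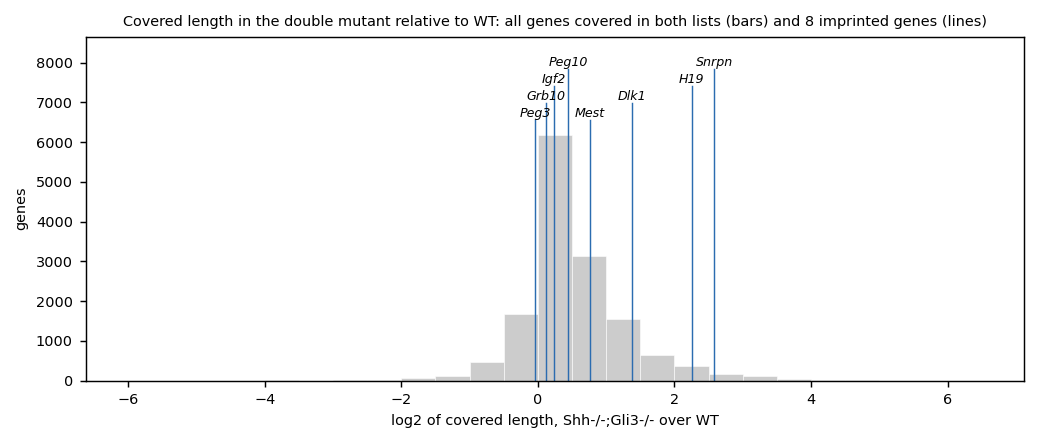
Number of genes (bars) by the log2 of the covered length in Shh-/-;Gli3-/- over WT, for the 14570 genes covered in both lists, with the 8 members covered in both drawn as lines. Peg3 lies just under 0, 4 members lie between 0 and 1, and Dlk1, H19 and Snrpn lie above 1.

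To ask whether imprinted genes beyond the set lacked a double mutant promoter peak, 46 others were examined. A promoter peak was listed for 23 in WT, 27 in Shh-/- and 25 in Shh-/-;Gli3-/-, with 21 in all lists and 18 in none. Magel2, a paternally expressed gene of the Snrpn region, was the single one with a WT and a Shh-/- promoter peak and none in Shh-/-;Gli3-/-. Its peaks were 200 bp wide in WT (chromosome 7, 62376700 to 62376899, log2 fold 3.21, FDR 0.00159) and 200 bp in Shh-/- (62376750 to 62376949, 2.73, FDR 0.0192), and no Shh-/-;Gli3-/- peak lay within 10 kb of the gene. Its neighbours Mkrn3 and Peg12 had promoter peaks in all lists, of 200, 200 and 600 bp and of 1200, 1000 and 1250 bp. Peak by peak, 34 of the 40 WT promoter peaks of the 46 genes were found again in Shh-/-. In Shh-/-;Gli3-/-, 4 of these 34 were not overlapped, against 739 of 11871 (6.23%) for all genes. They were the Magel2 peak, the 700 bp peak that Usp29 shares with Peg3, and narrow peaks of Tssc4 and Cdkn1c. The shared peak is the one by which the set was chosen. The WT promoter peaks of Usp29, Sgce and Snurf are also those of Peg3, Peg10 and Snrpn. This count is therefore not independent of the set, and nothing is read from its share. The Tssc4 peak measured 200 bp (FDR 0.00159) and the Cdkn1c peak 100 bp (FDR 0.0998).

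The remaining genes that varied in having any promoter peak were Zrsr1, Mcts2 and Impact (in both mutants and not in WT), Osbpl5 and Peg13 (Shh-/- alone) and Zim1 (WT and Shh-/-;Gli3-/-, 100 bp each). Zim1 neighbours Peg3 and is expressed from the maternal allele. Of the 32 paternally expressed genes, the 7 of the set and 25 others, 5 varied between lists and all were among the others. Of the 24 maternally expressed genes, 3 varied, which were Meg3, Osbpl5 and Zim1. The maternal genes beyond the set were listed as expressed from that allele in some tissue, which need not be the limb bud. The share of all genes that varied was not counted, so nothing is read from the counts by allele.

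**Figure D5:**
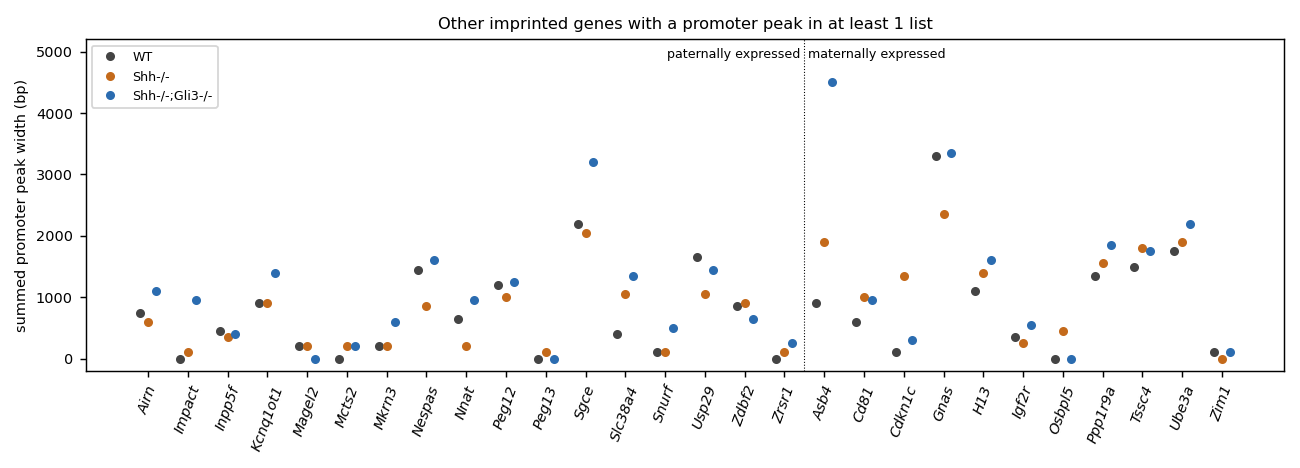
Summed promoter peak width in bp of the other imprinted genes with a promoter peak in at least 1 list, 1 point for each list, with paternally expressed genes to the left of the dotted line. Genes to the right of the line are maternally expressed in some tissue, which need not be the limb bud. Magel2 has 200 bp in WT and in Shh-/- and 0 in Shh-/-;Gli3-/-, while Asb4 reaches 4500 bp in Shh-/-;Gli3-/-.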

How the data were processed

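MicroChIP-seq libraries for H3K27ac were made from E10.5 forelimb buds with 12 PCR cycles, per the labels. Per the submitters' processing notes, which name Bowtie2 2.2.5 and CisGenome 2.1.0, the authors called 1 peak list per genotype on mm10. The labels attach each list to 1 replicate, and pooling of replicates is not stated there. The deposited lists give peak positions in steps of 50 bp, the score that orders them, a log2 fold over that genotype's input, an FDR (q-value) and the −log10 of a p-value. These were deposited by the authors and used within a list only. Folds are not compared between lists. The study's methods state a minimum read depth per library, but the lists hold no read totals, so the depth behind each peak is not known here. The lists do not say whether positions count from 0 or 1.

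Peaks were intersected (at least 1 bp) with gene spans extended by 10 kb and with promoter windows of GENCODE release 21 in Python 3.11.15 with pandas 2.3.3 and numpy 2.4.6. Figures were drawn with matplotlib 3.10.9. Counting was tested on simulated data. The members, the 46 other imprinted genes, the markers and the tests were chosen with earlier results of these data known. Named genes were all members, other imprinted genes that varied between lists, in gene or single peak, and those neighbouring a member.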

Additional observations from a re-analysis of the deposited data

How the results depend on the processing

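The count of 0 members with a WT and a Shh-/- promoter peak and none in Shh-/-;Gli3-/- was the same under all 7 other settings tried. Of the other main values, those that moved by over 1.5 times were these. With a log2 fold of at least 3, promoter peaks remained at 5 members in WT and 4 in Shh-/-, at 13 and 15 of the other imprinted genes, the Shh-/- cover of the members was 12250 bp, and 5 members were covered further in Shh-/-;Gli3-/- than in WT. With a width of at least 500 bp, 13 (WT) and 14 (Shh-/-) other imprinted genes kept a promoter peak. With the outermost start alone, 5 members had a Shh-/- promoter peak and promoter widths summed to 7000 (WT), 5800 (Shh-/-) and 8600 bp (Shh-/-;Gli3-/-). With 25 kb on both sides of genes, cover summed to 30150 (Shh-/-) and 48971 bp (Shh-/-;Gli3-/-). The 2 WT promoter peaks found in Shh-/- and not in Shh-/-;Gli3-/- became 0 with equal numbers of peaks in the lists, 0 when a gap of up to 500 bp was allowed and 0 when an FDR below 0.05 was asked for, and stayed 2 with a promoter window of 1 kb on both sides. These 4 settings were chosen after seeing the data. The Shh-/- peak inside the WT Peg3 peak has an FDR of 0.130, so with the FDR filter that WT peak was found in neither mutant. With equal numbers of peaks, the Shh-/- promoter width went from 1250 to 1050 bp at Peg3 and from 150 to 0 bp at Dlk1. The low-ranked Shh-/- peaks that overlapped the 2 WT peaks were thus cut, and no double mutant peak was gained there. The cause of the other moves was not tested.

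No paired analysis was possible because the lists hold no value per replicate, and replicates could not be left out for the same reason. Read totals per library were not analysed here, so an unlisted peak is not evidence of absent acetylation.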

Other observations

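Around the members, Usp29, the gene that shares the Peg3 promoter and runs over 237 kb, had 12 peaks within 10 kb of its span in WT, 44 in Shh-/- and 28 in Shh-/-;Gli3-/-, of which 8, 27 and 25 had an FDR below 0.05. Its covered length was 3.9, 10.7 and 10.8 kb in that order. At Ppp1r9a in the Peg10 region, covered length was 5.2, 5.8 and 16.2 kb, and at Asb4 it was 2.1, 4.6 and 5.7 kb. The domain from Dlk1 to Dio3 was covered for 0.151% in WT, 0.163% in Shh-/- and 0.779% in Shh-/-;Gli3-/-, where the whole genome was covered for 0.38%, 0.475% and 0.629%, and Rtl1, Rian, Mirg and Dio3 in that domain had no promoter peak in any list.

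In the domain of Kcnq1ot1, a noncoding RNA of the paternal copy, the order of the lists was another. Cdkn1c, a maternally expressed inhibitor of cell division, had promoter peaks of 100 bp in WT, 1350 bp in Shh-/- and 300 bp in Shh-/-;Gli3-/-. Its covered length was 0.1, 1.9 and 0.3 kb. The Kcnq1ot1 promoter peaks summed to 900, 900 and 1400 bp, and the whole domain was covered for 0.905%, 1.67% and 1.27%. Phlda2 and Ascl2 had no peak within 10 kb in any list.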
